A study of Mus musculus with 36 samples.

Results

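The collagen and extracellular matrix genes described here are 37 genes, taken by symbol from the annotation of the astrocyte table, and all 37 were found among its 14551 genes and among the 15385 genes of the microglia table. They comprise 7 fibrillar or fibril-associated collagens, 6 network and beaded-filament collagens, 4 small leucine-rich proteoglycans, 5 elastic fibre and fibulin genes, 4 adhesive and matricellular glycoproteins, 5 basement membrane glycoproteins and 6 genes for collagen processing and crosslinking. The RNA came from primary mouse glia of C57BL/6 pups, in which pooled brains were grown as mixed glia before microglia were selected with CD11b and astrocytes were taken from the remaining fraction. Each of the 4 astrocyte groups holds 3 libraries, given DMSO, Nec-1s, TNF/Smac/zVAD (T/S/Z) or TNF/Smac/zVAD/Nec-1s (T/S/Z/N). Each of the 6 microglia groups holds 4, given one of these or TNF/5z-7 (T/5z) or TNF/5z-7/Nec-1s (T/5z/N). All treatments lasted 4 h. TNF is an inflammatory cytokine, Smac a mimetic that removes the cIAP ubiquitin ligases, zVAD a caspase inhibitor, 5z-7 an inhibitor of the kinase TAK1, and Nec-1s an inhibitor of the kinase activity of RIPK1, so the T/S/Z/N and T/5z/N groups ask which responses need that activity. The comparisons below ask how the matrix genes answered each stimulus and how far Nec-1s, added to it, altered that answer.

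Fibrillar collagens are triple helices that are secreted as procollagens, trimmed outside the cell and crosslinked by lysyl oxidases into fibres. Type IV collagen, laminins and nidogens build the sheet-like basement membrane, and small proteoglycans such as decorin and lumican bind collagen fibrils and set their spacing. In the brain most fibrillar collagen is made by meningeal and perivascular fibroblasts, while basement membrane is laid down around vessels by endothelial cells, pericytes and astrocytes.

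Levels are log2(FPKM + 1), in which FPKM corrects for the annotated exon length of the gene. That length differed between the 2 tables for some genes, as for Dcn (5838 bases in astrocytes, 1939 in microglia), and not for others, as for Serpinh1 (2443). Ranks of level and ratios between genes therefore depend on the lengths used. Changes are differences on that log2 scale from a limma fit across all tested genes with the replicate number as a block. A gene was called when its Benjamini-Hochberg adjusted p was under 0.05 and its fold change over 1.5. All 37 genes passed the filter in astrocytes, where 13842 genes were tested, and 20 of 37 passed in microglia, where 10524 were tested. The astrocyte libraries carried high levels of the defining astrocyte transcripts, with Gfap at a mean of 10.97 and Aqp4 at 8.34 in DMSO, and the summed FPKM of 12 microglial markers was 108 to 117 there against 9550 to 10744 in the DMSO microglia. Cldn5, Pecam1, Tek, Kcnj8, Abcc9, Myh11, Des and Meox1, which mark endothelial cells, mural cells or meningeal fibroblasts, had no row in the astrocyte table. Other markers of those cells were present in DMSO, at means of 9.41 for Tagln and 9.21 for Acta2 (smooth muscle and pericytes), 5.88 for Thy1 and 4.45 for Aldh1a2 (fibroblasts and meninges) and 3.73 for Cdh5 (endothelium). The remaining mural markers with a row were low, at 1.82 for Cspg4, 1.34 for Rgs5 and 1.06 for Notch3. The fibroblast and endothelial lists reached down to 0.73 (Twist2) and 0.41 (Emcn). In bulk RNA, fewer cells of a type and less RNA per cell cannot be told apart. Steps between low values put the astrocyte libraries at 21.3 to 22.4 M counted units each and replicate 4 of the microglia groups at 18.3 to 25.4 M, although a step of doubled depth fitted about as well and the other microglia libraries gave no step.

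In DMSO-treated astrocytes the matrix genes spanned a wide range of levels, ranked here by the lengths annotated in the astrocyte table. Sparc, a collagen-binding matricellular protein, was the most abundant at 10.99 ± 0.07 (SD, n = 3), followed by Fn1 (fibronectin) at 8.33, Col3a1 (the chain of type III collagen) at 7.81, Serpinh1 (the collagen chaperone HSP47) at 7.63 and Dcn (decorin) at 7.28. Mfap5, a microfibril protein, was the least abundant at 1.36. The members summed to 4136 to 4411 FPKM, or 0.938% of the summed FPKM of the library, of which Sparc alone gave 2037.

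T/S/Z lowered most of these matrix genes in astrocytes. Of the 37 genes, 20 fell and 0 rose, where 8.99% of all tested genes were called lower and 6.39% higher. The members were chosen with earlier results of these data known, so here and below the shares of all genes are a description, not a test. Matrix genes outside the list are given further below. The falls ran from 0.65 (Col11a1) to 2.87 (Col3a1) on the log2 scale, the median change of the members was -0.82, and the median of all tested genes was -0.11. All 3 T/S/Z libraries lay below all 3 DMSO libraries for 28 of 37 members, as they did for 31.6% of the tested genes. The members' sum lay below the DMSO range in every T/S/Z library, between 2948 and 3336 FPKM, or 0.678% of the total.

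Nec-1s added to T/S/Z raised 15 of the 37 genes over T/S/Z alone and lowered 0, where 1.51% of all tested genes were called higher and 1.59% lower. The rises ran from 0.71 (Pcolce) to 2.39 (Col3a1), and the members' median was 0.43 against 0.03 for all genes. All 3 T/S/Z/N libraries lay above all 3 T/S/Z libraries for 23 of 37 members, as they did for 21.0% of the tested genes. Both comparisons use the T/S/Z libraries, so the values of the called members are mostly given below for DMSO, T/S/Z and T/S/Z/N side by side. Compared directly with DMSO, which does not use the T/S/Z libraries, T/S/Z/N left 3 members lower (Col1a1, Col8a1 and Col11a1) and 1 higher (Eln), where 4.72% and 4.36% of the tested genes were called, and the members' median was -0.23. The adjusted p was under 0.05 for 20 members, called or not. All 3 T/S/Z/N libraries lay below all 3 DMSO libraries for 22 of 37 members, as they did for 30.9% of the tested genes, and the members' sum was 3639 to 3719 FPKM, below the DMSO range.

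Nec-1s without a stimulus did not call any member in limma, where 0% of the tested genes were called higher and 0.0144% lower. At an unadjusted p under 0.05 the number was 3 of 37 members, which were Thbs2 (0.24), Serpinh1 (0.22) and Fbln1 (0.22), each with adjusted p of at least 0.85, against 790 of 13842 genes. The test of the difference itself, the interaction of T/S/Z and Nec-1s, called 14 members higher and 0 lower, where 1.76% and 1.61% of the tested genes were called. Fbln1 had an interaction of 0.51 ± 0.13 (SE, adjusted p = 0.0456), under the fold minimum. Without replicate 1 the interaction called 9 members, and without replicate 2 it called 7.

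The calls of the 2-group comparisons depended on the spread that limma shares across genes, and 3 pairs leave few degrees of freedom for a single gene. With an ordinary per-gene variance, 3 of the 20 falls were called (Col1a2, Col3a1 and Pcolce), and the adjusted p of the other 17 lay between 0.054 and 0.153. Likewise, 0 of the 15 rises and 0 of the 4 differences of T/S/Z/N from DMSO were called. The interaction, which was fitted on all 4 groups, called 11 members in that way.

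**Figure D1:**
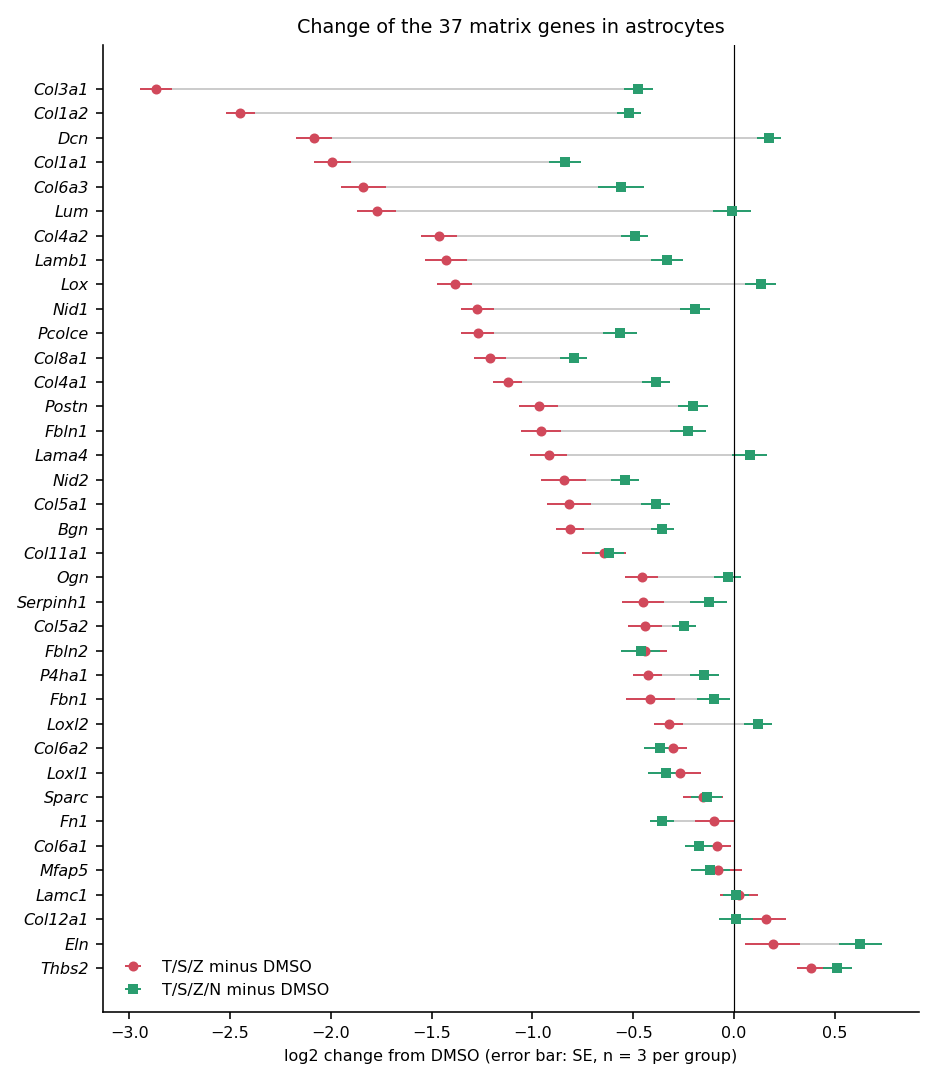
Log2 change from DMSO (x axis) of each of the 37 matrix genes (y axis) in astrocytes given T/S/Z (circles) or T/S/Z/N (squares), with the SE as error bar and 3 libraries per group. Col3a1, Col1a2 and Dcn show the longest distance between the 2 symbols, whereas those of Col11a1 (-0.65 and -0.62) and Sparc (-0.16 and -0.14) nearly coincide.

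Promoter stretches are shown for 5 members to set genes that fell together beside one that did not. The first 4 genes fell with T/S/Z, Col11a1 stayed low with Nec-1s, and Thbs2 did not fall. Each is the 150 bases just before a RefSeq transcript start (GRCm38.p6), written 5′ to 3′ on the gene's strand, outside every annotated exon, with capitals marking matches on either strand to the CCAAT box, to the letters GGGCGG of the GC box, or to the letters TATAAA of the TATA box. They lie at chr1:45311388-45311537 (+, Col3a1), chr1:90843972-90844121 (-, Col6a3), chr3:54360957-54361106 (+, Postn), chr3:114030390-114030539 (+, Col11a1) and chr17:14694263-14694412 (-, Thbs2).
Col3a1: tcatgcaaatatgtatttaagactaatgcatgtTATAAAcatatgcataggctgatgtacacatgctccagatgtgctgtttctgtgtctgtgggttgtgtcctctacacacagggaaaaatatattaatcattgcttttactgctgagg
Col6a3: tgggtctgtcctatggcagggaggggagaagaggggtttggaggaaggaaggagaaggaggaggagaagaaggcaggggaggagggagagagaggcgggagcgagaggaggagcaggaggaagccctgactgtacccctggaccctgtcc
Postn: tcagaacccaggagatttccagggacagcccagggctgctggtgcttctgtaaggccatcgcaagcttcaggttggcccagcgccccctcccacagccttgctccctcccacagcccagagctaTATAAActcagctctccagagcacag
Col11a1: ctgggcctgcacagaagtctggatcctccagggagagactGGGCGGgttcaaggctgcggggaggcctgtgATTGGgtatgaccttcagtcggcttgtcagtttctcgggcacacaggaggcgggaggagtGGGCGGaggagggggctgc
Thbs2: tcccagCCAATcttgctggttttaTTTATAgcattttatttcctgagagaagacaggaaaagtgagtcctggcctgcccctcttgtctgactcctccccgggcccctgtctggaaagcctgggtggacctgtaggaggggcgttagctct

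The 5 stretches share no single match. Postn carries TATAAA 26 bases before its start, Col3a1 carries it 117 bases before, Col11a1 carries GGGCGG and a reversed CCAAT, and Col6a3 carries none of the 3. Thbs2, which did not fall, carries CCAAT and, 126 bases before its start, a reversed TATAAA. RefSeq windows of 300 bases (250 before and 50 after the start) were found for 23 of the 37 members, 14 of which fell with T/S/Z. A member was counted when any of its windows matched, and some members, such as Postn, have more than 1. The share of all windows is over single windows, so such a member had more chances to match. On either strand, CCAAT was present in 7 of those 14 and in 1 of the other 9, against 37.4% of all 32851 windows. GGGCGG was present in 11 of the 14 and 5 of the 9, against 35.7% of all windows, TATAAA in 2 of 14 and 3 of 9, against 13.6%, and TGANTCA in 0 of 14 and 1 of 9, against 7.8%. The 10-letter NF-kB consensus was present in 2 of 14 and 4 of 9, against 8.5%. These are letter matches, and no binding was measured.

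Among the fibrillar and fibril-associated collagens, 5 of 7 genes fell with T/S/Z and 3 of 7 were higher when Nec-1s was added. Col3a1, on chromosome 1 at 45311538 to 45349706, read 7.67, 7.88 and 7.87 in the DMSO libraries and 7.78, 7.59 and 7.84 with Nec-1s. It read 4.92, 4.86 and 5.05 with T/S/Z and 7.33, 7.28 and 7.39 with T/S/Z/N. The T/S/Z libraries stood below all others by more than 2 log2 units, a 7.29-fold fall (-2.87 ± 0.08, SE, adjusted p = 8.69e-07), and Nec-1s raised them by 2.39 ± 0.08 (adjusted p = 4e-05). The level with T/S/Z/N was -0.48 ± 0.07 from DMSO, which was under the fold minimum although its adjusted p was 0.00586.

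The chains of type I collagen, the main fibrillar collagen of connective tissue, moved with Col3a1. Col1a2 read 6.76, 6.67 and 6.61 in DMSO, 4.37, 4.17 and 4.15 with T/S/Z, and 6.19, 6.18 and 6.12 with T/S/Z/N, with 6.71 to 6.82 in the Nec-1s group. It fell 5.46-fold with T/S/Z (-2.45 ± 0.07, adjusted p = 9.8e-07) and rose by 1.93 ± 0.08 when Nec-1s was added (adjusted p = 7.01e-05). Col1a1 read 7.05, 6.82 and 6.58 in DMSO, 5.27, 4.63 and 4.56 with T/S/Z, and 6.03, 6.05 and 5.85 with T/S/Z/N. All 3 groups of Col1a1 were separate, and it remained lower than DMSO with Nec-1s present (-0.84 ± 0.08, adjusted p = 0.000985) after a rise of 1.15 ± 0.13 over T/S/Z (adjusted p = 0.00439).

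The ratio between these collagens also differed by group, although its size depends on the annotated gene lengths. In FPKM, Col1a1 stood at 0.984 to 1.22 times Col1a2 in the DMSO libraries, at 1.35 to 1.91 times with T/S/Z and at 0.832 to 0.914 times with T/S/Z/N. The ratio of Col3a1 to Col1a1 was 1.55 to 2.46 in DMSO, 0.779 to 1.42 with T/S/Z and 2.36 to 2.94 with T/S/Z/N. In each ratio the T/S/Z libraries were apart from the DMSO and T/S/Z/N libraries, and Col1a1 had the smallest fall of the 3 genes (-1.99 ± 0.09, adjusted p = 9.75e-06).

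**Figure D2:**
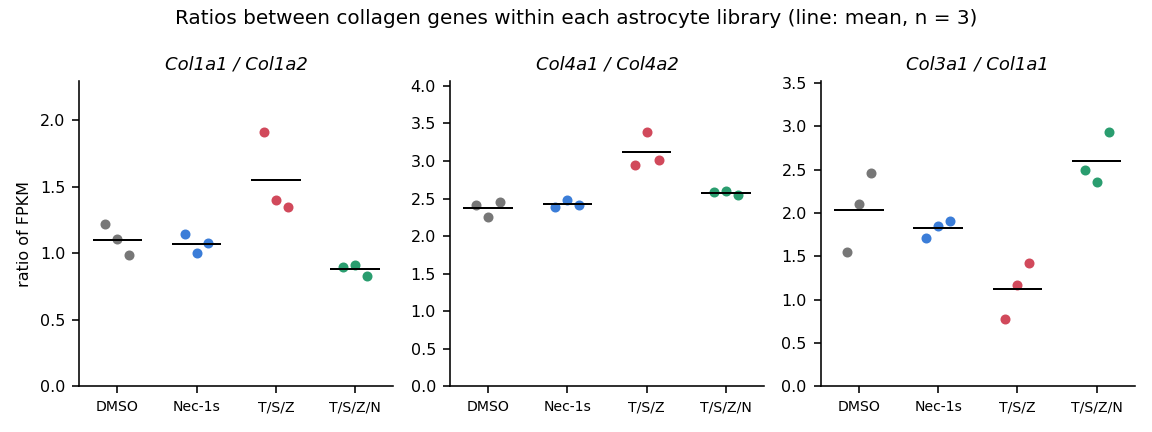
Ratio of FPKM between collagen genes (y axis) in each of the 12 astrocyte libraries, by treatment (x axis); points are libraries and lines are group means. With T/S/Z the ratios of Col1a1 to Col1a2 (mean 1.55) and of Col4a1 to Col4a2 (mean 3.12) lie above the other groups and that of Col3a1 to Col1a1 (mean 1.12) below them.

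The minor fibrillar collagens changed less. Col5a1, which nucleates type I fibrils, fell by 0.82 with T/S/Z (adjusted p = 0.0013) and stood 0.43 higher with Nec-1s added (adjusted p = 0.0613, not called). Col11a1 read 5.33, 5.38 and 5.25 in DMSO, 4.66, 4.47 and 4.88 with T/S/Z, and 4.81, 4.65 and 4.64 with T/S/Z/N. It fell by 0.65 ± 0.11 with T/S/Z, its level with T/S/Z/N lay within the T/S/Z range (difference 0.03 ± 0.11, adjusted p = 0.887), and it remained 0.62 below DMSO. Both calls of Col11a1 were just past the fold minimum. The fall with T/S/Z was not called without replicate 1 (-0.64, adjusted p = 0.0876), without replicate 2 (-0.52) or with 5 added to FPKM before the log (-0.57). The difference of T/S/Z/N from DMSO was not called without replicate 2 (-0.57), under median centring (-0.57) or with 5 added (-0.55). Col5a2, the neighbour of Col3a1 on chromosome 1, changed by -0.44 (adjusted p = 0.00659, under the fold minimum), and Col12a1, a fibril-associated collagen, by 0.16 (adjusted p = 0.217).

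Of the network and beaded-filament collagens, 4 of 6 fell with T/S/Z and 3 of 6 were higher when Nec-1s was added. Col4a1 and Col4a2 encode the chains of the main type IV collagen network and lie head to head on chromosome 8, at 11198423 to 11312826 on the minus strand and 11312805 to 11449287 on the plus strand, with starts 21 bases apart. Col4a2 read 5.49, 5.38 and 5.22 in DMSO, 4.19, 3.73 and 3.77 with T/S/Z, and 4.90, 4.90 and 4.81 with T/S/Z/N. Col4a1 read 6.74, 6.53 and 6.49, then 5.70, 5.41 and 5.28, then 6.24, 6.25 and 6.12 in the same groups. For both genes the 3 groups were separate, with T/S/Z lowest and T/S/Z/N between. The fall was 1.46 ± 0.09 for Col4a2 (adjusted p = 3.41e-05) and 1.12 ± 0.07 for Col4a1 (adjusted p = 4.02e-05), and the rise with Nec-1s was 0.97 ± 0.11 (adjusted p = 0.00384) and 0.74 ± 0.09 (adjusted p = 0.00624). The rise of Col4a1 was not called without replicate 2 (0.69, adjusted p = 0.0596). Their FPKM ratio, Col4a1 to Col4a2, was 2.26 to 2.46 in DMSO, 2.95 to 3.39 with T/S/Z and 2.54 to 2.60 with T/S/Z/N.

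Type VI collagen, which forms beaded microfilaments from 3 chains, was called in only 1 of them. Col6a3 read 3.29, 3.49 and 3.40 in DMSO, 1.67, 1.47 and 1.52 with T/S/Z, and 3.01, 2.70 and 2.79 with T/S/Z/N. Every T/S/Z library was more than 1 log2 unit below every other library, with a fall of 1.84 ± 0.11 (adjusted p = 3.4e-05) and a rise of 1.28 ± 0.10 when Nec-1s was added (adjusted p = 0.000673). Col6a1 and Col6a2, which are neighbours on chromosome 10, changed by -0.08 (adjusted p = 0.373) and -0.30 (adjusted p = 0.0151, under the fold minimum), and by -0.09 and -0.06 when Nec-1s was added, neither called. Their FPKM ratio, Col6a1 to Col6a2, was 1.911 to 1.986 in DMSO and 2.185 to 2.374 with T/S/Z. With T/S/Z/N it was 2.118 to 2.333 and stayed above the DMSO range. Col8a1, a short-chain collagen of vessel walls, read 6.05, 6.17 and 6.16 in DMSO, 4.95, 4.80 and 5.00 with T/S/Z, and 5.35, 5.29 and 5.35 with T/S/Z/N. It fell by 1.21 ± 0.08 with T/S/Z, and it was 0.80 lower than DMSO with Nec-1s present (adjusted p = 0.000666). Its difference between T/S/Z/N and T/S/Z was 0.41 ± 0.08 (adjusted p = 0.0308), under the fold minimum.

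Among the small leucine-rich proteoglycans 3 of 4 fell with T/S/Z and 2 of 4 were higher with Nec-1s added. Dcn, at 97479609 to 97518143 on chromosome 10, read 7.29, 7.25 and 7.32 in DMSO, 4.98, 5.26 and 5.36 with T/S/Z, and 7.42, 7.49 and 7.47 with T/S/Z/N. Lum (lumican), its neighbour at 97565128 to 97572703, read 4.05, 4.36 and 4.42, then 2.41, 2.42 and 2.68, then 4.28, 4.20 and 4.33. Both genes were low in the T/S/Z libraries only. Dcn fell 4.24-fold (-2.08 ± 0.09, adjusted p = 6.92e-06) and rose by 2.26 ± 0.09 when Nec-1s was added (adjusted p = 6.21e-05), and Lum fell by 1.77 ± 0.10 (adjusted p = 1.98e-05) and rose by 1.76 ± 0.09 (adjusted p = 0.000168). With Nec-1s present they stood at 0.17 ± 0.06 (adjusted p = 0.0766) and -0.01 ± 0.10 (adjusted p = 0.956) from DMSO, and the sign of the latter turned under median centring (0.04). Bgn (biglycan) fell by 0.82 (adjusted p = 0.000164) and was 0.46 higher with Nec-1s added (adjusted p = 0.0211, under the fold minimum). Ogn (osteoglycin) changed by -0.46 and 0.43, both under the fold minimum.

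**Figure D3:**
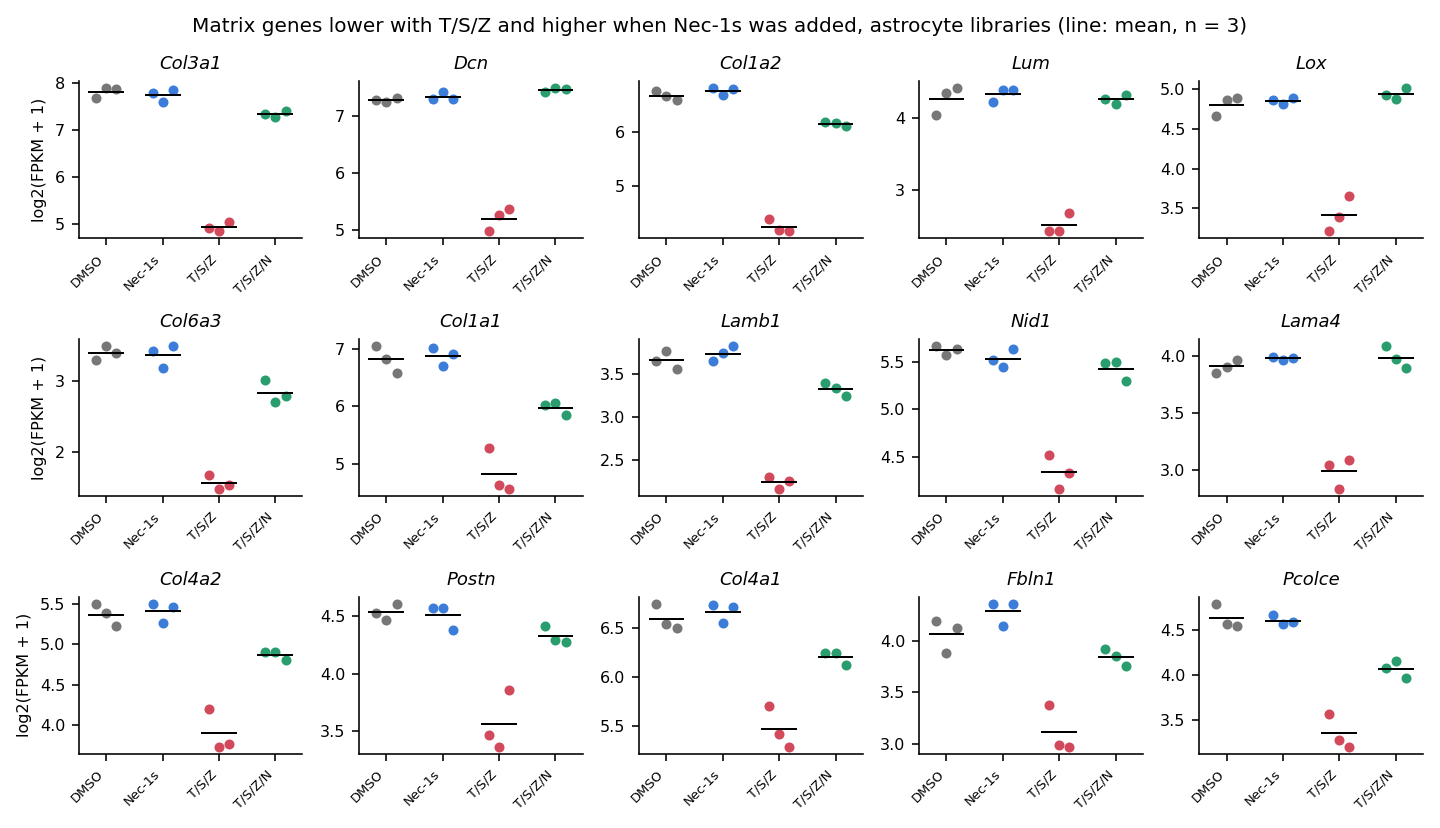
Level, log2(FPKM + 1), of the 15 matrix genes called higher in T/S/Z/N than in T/S/Z (one panel per gene, y axis) in each astrocyte library by treatment (x axis); points are libraries and lines are means of 3. The T/S/Z libraries are the lowest 3 in every panel, and the T/S/Z/N libraries of Dcn (7.42 to 7.49) lie above the DMSO libraries whereas those of Col1a1 (5.85 to 6.05) lie below them.

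Of the 5 basement membrane glycoproteins, 4 fell with T/S/Z and 3 were higher with Nec-1s added. Lamb1, the beta1 chain of laminin, read 3.66, 3.77 and 3.56 in DMSO, 2.29, 2.15 and 2.25 with T/S/Z, and 3.40, 3.34 and 3.24 with T/S/Z/N. It fell by 1.43 ± 0.10 (adjusted p = 7.42e-05) and rose by 1.09 ± 0.10 (adjusted p = 0.00134). Nid1 (nidogen 1), which links laminin to type IV collagen, read 5.66, 5.57 and 5.63 in DMSO, 4.52, 4.17 and 4.34 with T/S/Z, and 5.49, 5.49 and 5.30 with T/S/Z/N. Its fall was 1.27 ± 0.08 (adjusted p = 3.89e-05) and its rise 1.08 ± 0.10 (adjusted p = 0.0018), and all T/S/Z libraries were below all others.

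Lama4, the alpha4 laminin chain of vessel walls, read 3.85, 3.90 and 3.96 in DMSO, 3.04, 2.83 and 3.09 with T/S/Z, and 4.09, 3.97 and 3.89 with T/S/Z/N. The DMSO and T/S/Z/N libraries overlapped, and the T/S/Z libraries were apart, with a fall of 0.92 ± 0.09 and a rise of 1.00 ± 0.10 (adjusted p = 0.00253). Nid2 (nidogen 2) fell by 0.84 (adjusted p = 0.00131), and its change with Nec-1s added was 0.30 (adjusted p = 0.099). Lamc1, the gamma1 chain that most laminins contain, changed by 0.02 with T/S/Z (adjusted p = 0.856), a value whose sign turned when replicate 1 or 3 was left out.

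The elastic fibre and fibulin genes and the adhesive glycoproteins were the groups with the fewest falls, at 1 of 5 and 1 of 4. Fbln1 (fibulin 1) read 4.20, 3.89 and 4.12 in DMSO, 3.38, 2.99 and 2.97 with T/S/Z, and 3.92, 3.85 and 3.75 with T/S/Z/N, a fall of 0.96 ± 0.10 (adjusted p = 0.00039) and a rise of 0.73 ± 0.10 (adjusted p = 0.00946). Postn (periostin), a matricellular protein, read 4.53, 4.47 and 4.61, then 3.47, 3.37 and 3.86, then 4.41, 4.30 and 4.28, a fall of 0.97 ± 0.10 (adjusted p = 0.000355) and a rise of 0.77 ± 0.12 (adjusted p = 0.0158). In both genes the T/S/Z libraries lay apart below the others, and the rise was not called when replicate 2 was left out (adjusted p of 0.0777 for Fbln1 and 0.0956 for Postn). The rise of Postn was also lost without replicate 1 (0.68, adjusted p = 0.0662), and that of Fbln1 with 5 added before the log (0.53).

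Eln, which encodes the elastic protein elastin, was the member called higher with T/S/Z/N than in DMSO. It read 2.95, 2.75 and 3.02 in DMSO, 3.05, 2.79 and 3.10 with Nec-1s, 3.47, 2.95 and 2.87 with T/S/Z, and 3.47, 3.63 and 3.50 with T/S/Z/N. The T/S/Z libraries overlapped those of DMSO (0.19 ± 0.14, adjusted p = 0.292), and the T/S/Z/N libraries lay above all DMSO libraries (0.63 ± 0.10, adjusted p = 0.00849), a call that was lost without replicate 2 (0.50, adjusted p = 0.0649) and with 5 added before the log (0.44). Thbs2 (thrombospondin 2) was 0.38 higher with T/S/Z (adjusted p = 0.00452) and 0.51 higher than DMSO with T/S/Z/N (adjusted p = 0.00422), both under the fold minimum.

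The 2 most abundant matrix genes were not called in any astrocyte comparison. Sparc changed by -0.16 ± 0.10 with T/S/Z (adjusted p = 0.25) and Fn1 by -0.10 ± 0.10 (adjusted p = 0.452). Fibronectin was at -0.36 ± 0.06 from DMSO with T/S/Z/N (adjusted p = 0.00835), under the fold minimum. Fbn1 (fibrillin 1) and Fbln2 (fibulin 2) changed by -0.42 and -0.44 with T/S/Z, under the fold minimum, and Mfap5 by -0.08 (adjusted p = 0.631), with a sign that turned under quantile normalization.

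Of the 6 genes for collagen processing and crosslinking, 2 fell with T/S/Z and both were higher with Nec-1s added. Lox, the lysyl oxidase that starts the crosslinking of collagen and elastin, read 4.66, 4.86 and 4.89 in DMSO, 3.21, 3.39 and 3.65 with T/S/Z, and 4.93, 4.87 and 5.01 with T/S/Z/N. Pcolce, an enhancer of procollagen C-proteinase, read 4.78, 4.56 and 4.54, then 3.57, 3.29 and 3.21, then 4.07, 4.16 and 3.96. The T/S/Z/N libraries reached the DMSO range for Lox and stayed below it for Pcolce. Lox fell by 1.39 ± 0.09 (adjusted p = 3.58e-05) and rose by 1.52 ± 0.10 (adjusted p = 0.000407), and Pcolce fell by 1.27 ± 0.08 (adjusted p = 3.72e-05) and rose by 0.71 ± 0.10 (adjusted p = 0.0112). The rise of Pcolce was not called without replicate 2 (0.63, adjusted p = 0.096) or with 5 added before the log (0.54). The other crosslinking enzymes Loxl1 and Loxl2 changed by -0.27 and -0.32, Serpinh1 by -0.45 and P4ha1, a subunit of prolyl 4-hydroxylase, by -0.43, none past the fold minimum.

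The annotation marks 18 of the 37 genes as confounded, a mark that is not defined in the sources used here and that 56.4% of the genes in the astrocyte table carry. Among the 19 genes without it, 10 fell with T/S/Z and 7 were higher with Nec-1s added.

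Markers of several other cell types moved with these genes. Of all tested genes, 8.99% were called lower and 6.39% higher with T/S/Z, and 1.51% higher with Nec-1s added. Against DMSO, T/S/Z/N called 4.72% lower and 4.36% higher. Of 14 fibroblast and meningeal markers that encode no matrix protein, 11 were tested, of which 8 fell with T/S/Z and 1 rose (Prrx1, by 1.20), and 3 were higher with Nec-1s added. Aldh1a2, a retinoic acid enzyme of the meninges, fell by 2.33 and rose by 1.91, Tbx18 fell by 1.15 and rose by 1.05, and Pdgfrb fell by 1.49 and rose by 0.75. Their summed FPKM was 158 to 159 in DMSO, 121 to 125 with T/S/Z and 153 to 156 with T/S/Z/N, and without Prrx1, left out after its values were seen, it was 136 to 139, 72.0 to 73.4 and 94.8 to 98.4. T/S/Z/N against DMSO called 5 of these 11 markers lower and 1 higher (Prrx1, by 1.39), with a median of -0.48. Twist2 and Slc6a13 had DMSO means under 1. Of 12 microglial markers 11 were tested, 7 fell and 3 were higher with Nec-1s added, and their sum went from 108 to 117 down to 66.1 to 70.5 and back to 94.8 to 105. Of 9 endothelial markers 5 were tested, Cdh5 fell by 1.74 and rose by 1.37, Kdr fell by 1.68, and Flt1 rose by 0.61 with T/S/Z, with sums of 21.9 to 23.9, 11.0 to 11.4 and 16.9 to 19.1. Of 9 pericyte and smooth muscle markers 5 were tested and 0 were called in either comparison, with sums of 1205 to 1424 in DMSO, 1086 to 1268 with T/S/Z and 1005 to 1114 with T/S/Z/N. Acta2 and Tagln gave most of those sums. Of 12 astrocyte markers 2 fell with T/S/Z (Gja1 by 0.85 and Sox9 by 0.82) and 0 were called with Nec-1s added, and of 6 oligodendrocyte lineage markers tested only Olig1 fell. The median of the astrocyte markers was -0.21 with T/S/Z. It was -0.27 with T/S/Z/N against DMSO, where 3 were called lower and 1 higher. The part of these cell types in the change of the matrix genes was not tested.

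**Figure D4:**
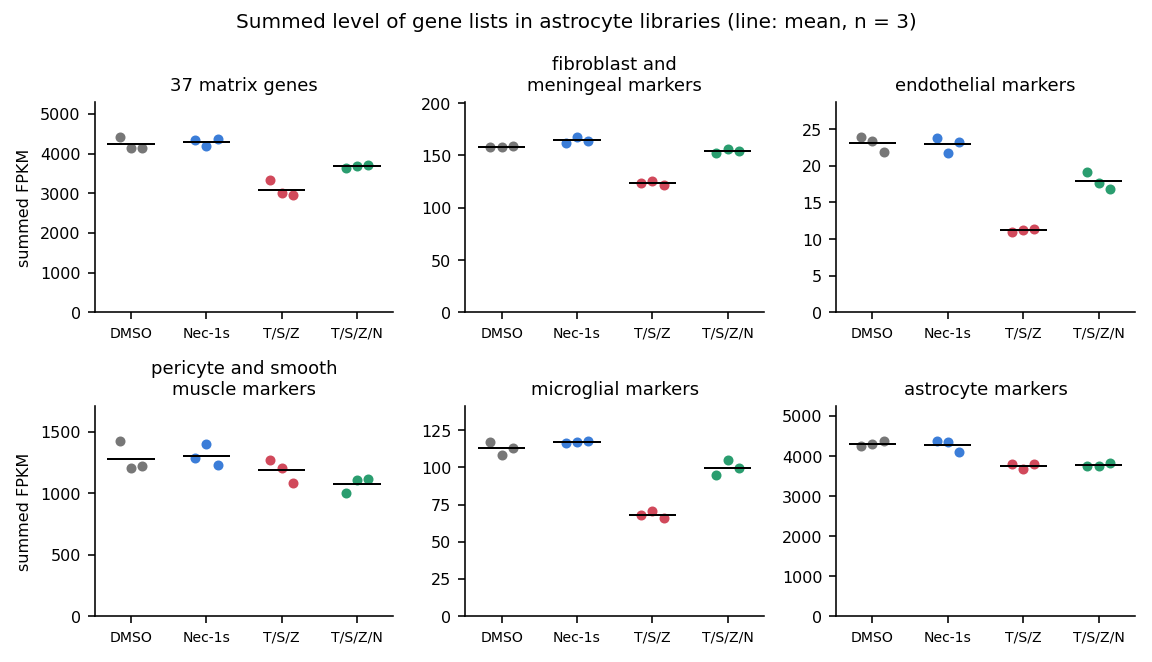
Summed FPKM (y axis, from 0) of the 37 matrix genes and of marker lists for 5 cell types in each astrocyte library by treatment (x axis); points are libraries and lines are means of 3. The matrix genes (2948 to 3336 with T/S/Z), the fibroblast and meningeal list (121 to 125), the endothelial list (11.0 to 11.4) and the microglial list (66.1 to 70.5) are each lowest in the T/S/Z libraries.

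Other genes of the matrix pathway were called in both directions. The lists given here hold no member, and their counts are over tested genes with T/S/Z against DMSO and then with Nec-1s added. Of all tested genes, 6.39% were called higher and 8.99% lower with T/S/Z, and 1.51% and 1.59% with Nec-1s added. Some counts, such as 1 lower of 10 with T/S/Z, are near those shares, and no list was tested as a set. Other collagens had 1 gene higher and 3 lower of 17, led by Col27a1 (1.05) and Col7a1 (-1.36), and with Nec-1s 2 were higher, led by Col7a1 (1.11). Enzymes and chaperones of collagen folding, processing and crosslinking had 4 higher and 1 lower of 25, led by Loxl4, a lysyl oxidase-like enzyme (1.60), and P3h3 (-0.67), and with Nec-1s Tll1 was higher (0.65) and Adamts14 lower (-0.80). Other laminins and basement membrane genes had 2 higher and 1 lower of 10, led by Hspg2 (perlecan, 0.66) and Smoc2 (-0.96), and with Nec-1s Smoc2 was higher (0.72) and Lama5 lower (-0.60).

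Glycoproteins and proteoglycans outside the members had 3 higher and 7 lower of 34, led by Tnc (tenascin C, 1.46) and Mgp (matrix Gla protein, -1.65), and with Nec-1s 5 were higher and 2 lower, led by Mgp (1.78) and Tnc (-0.74). Matrix receptors had 4 higher and 2 lower of 22, led by Itga5, the fibronectin receptor subunit (1.98), and Itga1, a collagen receptor subunit (-1.0), and with Nec-1s only Itga5 was called (-0.78). Genes of the TGF-beta pathway, a main inducer of matrix genes, had 6 higher and 3 lower of 21, the latter led by Ccn2 (-1.04), and with Nec-1s 1 was higher (Tgfb3, 0.64) and 3 were lower. Fibronectin itself was not called while its receptor subunit rose.

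In microglia the matrix genes were far less abundant, and those called with a stimulus were higher, not lower. The members summed to 127 to 143 FPKM in DMSO, 0.0277% of the total, and only 20 of 37 passed the filter, 16 of which were at 1 or more in every DMSO library. Fn1 (5.29), P4ha1 (5.14), Lamc1 (3.96) and Sparc (3.53) had the highest means. The astrocyte and microglia tables were normalized separately, so changes were tested within each table only.

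T/5z called 12 of 20 members higher and 0 lower, where 11.1% of the tested genes were called higher and 13.3% lower, and the members' median was 0.63. Nec-1s added to T/5z called 13 of 20 lower and 0 higher, where 4.52% and 2.64% of the tested genes were called, and the median was -0.67. T/S/Z called 3 higher (Fn1, Lamc1 and Lox) and 0 lower, where 12.2% and 17.5% of the tested genes were called, and the median was 0.15. The 3 genes are 15% of the 20 members, near the 12.2% of all tested genes. Median centring called 5 members and 1564 of all tested genes higher in that comparison, and quantile normalization called 6 members and 1340 genes. Nec-1s added to T/S/Z called 7 lower and 0 higher, where 6.72% and 5.35% were called, and the median was -0.47. Over the 16 members that did not need a treated group to pass the filter, the counts were 9, 12, 3 and 6 in that order. Most of these members had levels under 3, and with a mean of at least 3 required only 4 members were left, of which T/5z called 2. With 5 added to FPKM before the log, T/5z called 2 of 20 and Nec-1s added to it 2, and with a fold minimum of 2 these counts were 2 and 1.

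Fn1, the most abundant member in microglia, read 5.57, 5.34, 5.20 and 5.07 in DMSO and 5.62, 5.51, 5.17 and 4.95 with Nec-1s alone. It read 6.54, 6.70, 6.37 and 6.76 with T/5z and 6.27, 6.26, 6.88 and 6.94 with T/S/Z, above every unstimulated library. With Nec-1s added it read 5.66, 5.64, 5.59 and 5.44 for T/5z/N and 5.46, 5.67, 5.90 and 5.96 for T/S/Z/N. It rose by 1.3 ± 0.11 with T/5z (adjusted p = 5.76e-05) and 1.29 ± 0.19 with T/S/Z (adjusted p = 0.00044), and Nec-1s lowered it by 1.01 ± 0.08 (adjusted p = 3.7e-05) and 0.84 ± 0.07 (adjusted p = 6.3e-05).

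Lox read 2.67, 2.48, 2.16 and 1.73 in DMSO, 3.11, 3.33, 3.46 and 3.52 with T/5z, and 2.68, 2.58, 3.19 and 3.51 with T/S/Z. It read 2.21, 2.16, 2.52 and 2.67 with T/5z/N and 1.94, 1.98, 1.86 and 2.05 with T/S/Z/N. The T/5z libraries were all above DMSO, and the T/S/Z group overlapped it. Lox rose by 1.10 ± 0.20 (adjusted p = 0.0025) and 0.73 ± 0.27 (adjusted p = 0.0401), and fell by 0.97 ± 0.07 and 1.03 ± 0.14 when Nec-1s was added (adjusted p = 1.89e-05 and 0.000662).

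Sparc read 3.63, 3.51, 3.41 and 3.59 in DMSO, 4.22, 4.50, 4.35 and 3.97 with T/5z, and 3.94, 3.79, 4.11 and 4.48 with T/S/Z, both stimulated groups lying above DMSO. It read 3.58, 3.59, 3.58 and 3.36 with T/5z/N and 3.13, 3.10, 3.10 and 3.23 with T/S/Z/N. Its rise was called with T/5z (0.73, adjusted p = 0.00084) and under the fold minimum with T/S/Z (0.54, adjusted p = 0.0024), and both falls with Nec-1s were called (-0.73 and -0.94). Lamc1 read 4.02, 3.92, 3.85 and 4.07 in DMSO, 4.46, 4.50, 4.92 and 4.70 with T/S/Z, and 3.99, 4.15, 4.28 and 4.21 with T/S/Z/N, a rise of 0.68 ± 0.10 (adjusted p = 0.000516), and with T/5z it changed by -0.17 (adjusted p = 0.175). P4ha1 read 5.10, 5.07, 5.33 and 5.08 in DMSO, 5.65, 5.64, 5.58 and 5.92 with T/S/Z, and 5.12, 5.10, 5.02 and 5.14 with T/S/Z/N. The T/S/Z libraries of P4ha1 were the highest, at 0.55 over DMSO (adjusted p = 0.000849, under the fold minimum), and it fell by 0.60 ± 0.05 when Nec-1s was added (adjusted p = 8.48e-05).

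Of the 13 collagens 7 were tested in microglia, of which T/5z called 5 higher and T/S/Z 0, and the difference between the stimuli was not tested. Col3a1 read 1.52, 1.33, 1.60 and 1.70 in DMSO, 2.43, 2.70, 2.35 and 2.09 with T/5z, and 1.33, 1.13, 1.31 and 1.5 with T/S/Z. With Nec-1s added it read 1.41 to 1.78 for T/5z/N and 0.99 to 1.39 for T/S/Z/N. The T/5z libraries lay above all the others. It rose with T/5z (0.85 ± 0.15, adjusted p = 0.00204), fell when Nec-1s was added to T/5z (-0.75 ± 0.07, adjusted p = 9.66e-05), and changed by -0.22 with T/S/Z (adjusted p = 0.0328, under the fold minimum). Col1a1, Col1a2 and Col5a2 also rose with T/5z, by 0.62 to 0.77, as did Nid1 (0.71) and Serpinh1 (0.81). Col4a1 (0.56) and Col4a2 (0.57) were under the fold minimum. Col6a1 (0.75), Dcn (0.74) and Loxl2 (0.61) were called too, but these, with Pcolce, were under 1 in at least 1 DMSO library and so passed the filter with the help of other groups. With Nec-1s added to T/5z, Col1a2, Col5a2, Col4a1, Col4a2, Bgn, Thbs2, Nid1, Loxl2 and Serpinh1 were called lower, by 0.63 to 0.81. With Nec-1s added to T/S/Z, Col6a1 (-0.63), Thbs2 (-0.92) and Serpinh1 (-0.71) were called lower, and the changes of Nid2 (-0.06) and Pcolce (-0.31) were not called.

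Other cell types' transcripts moved in the microglia libraries as well, and the shares of all tested genes called are those given above for each comparison. The summed FPKM of the fibroblast and meningeal list was 2.40 to 3.36 in DMSO, 4.91 to 11.7 with T/5z, 2.66 to 3.65 with T/5z/N, 1.99 to 5.34 with T/S/Z and 0.277 to 2.02 with T/S/Z/N. Of 8 astrocyte markers tested, 4 were higher and 1 lower with T/5z and 5 were lower and 1 higher when Nec-1s was added to it, and 5 were higher and 1 lower with T/S/Z and 5 lower with Nec-1s, with Gfap between 1.32 and 3.07 over all libraries. The summed FPKM of the astrocyte list, of which Glul was the most abundant, was 180 to 241 in DMSO, 86.7 to 117 with T/5z, 125 to 135 with T/5z/N, 120 to 143 with T/S/Z and 139 to 155 with T/S/Z/N. Of 3 pericyte and smooth muscle markers tested, 1 was higher (Acta2) and 1 lower (Cspg4) with T/5z, and 2 were lower when Nec-1s was added to it. With T/S/Z 1 was higher (Cspg4), and all 3 were lower when Nec-1s was added. Their list summed to 10.9 to 13.5 FPKM in DMSO, 11.3 to 20.2 with T/5z, 6.81 to 9.20 with T/5z/N, 13.4 to 24.9 with T/S/Z and 6.88 to 9.25 with T/S/Z/N. Of 3 endothelial markers tested, T/5z called 1 lower and T/S/Z 2 lower (median -0.96), and 0 were called when Nec-1s was added to either. Of 3 oligodendrocyte lineage markers tested, T/5z called 1 higher, and T/S/Z 1 higher and 1 lower. With Nec-1s added, 1 was lower for T/5z, and 1 was higher and 1 lower for T/S/Z. The part of transcripts of these cell types in the changes of the members was not tested.

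**Figure D5:**
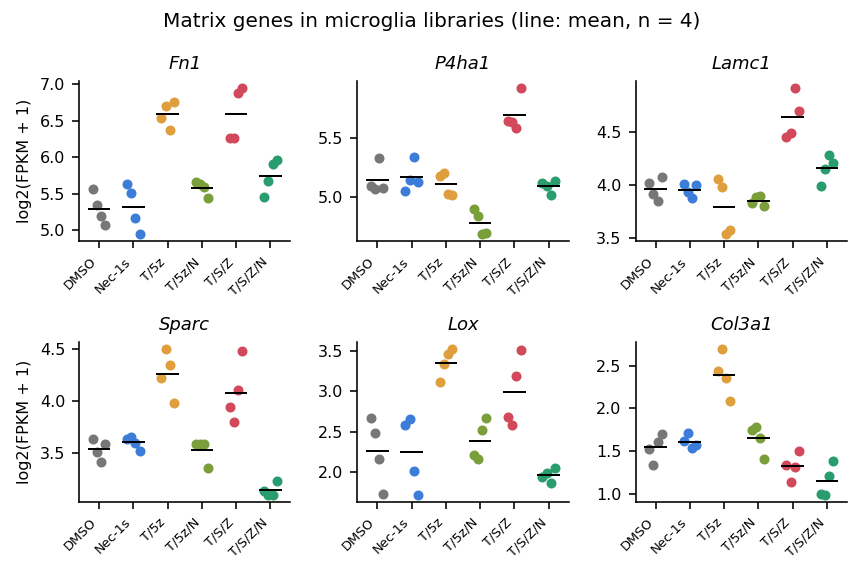
Level, log2(FPKM + 1), of 6 matrix genes (one panel per gene, y axis) in each microglia library by treatment (x axis); points are libraries and lines are means of 4. Fn1 is at 6.26 or higher in every T/5z and T/S/Z library, whereas Col3a1 is high with T/5z (2.09 to 2.70) and not with T/S/Z (1.13 to 1.5).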

How the data were processed

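RNA was sequenced from 12 astrocyte and 24 microglia libraries. The deposited values are log2(FPKM + 1), which the authors computed in OmicSoft Array Studio and scaled to the 75th percentile of each library, and for microglia replicates 1 to 3 the authors shifted gene means to those of replicate 4, which leaves up to 1438 values per library below 0. The astrocyte libraries were made with a strand-specific protocol and the microglia libraries elsewhere, so the tables were not tested against each other. The aligner is not given in the sources used here. Groups came from the sample labels. The labels do not tie the replicates to cultures, and the study's statistics section counts n as biological replicates, for isolated cells by litter.

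Genes at 1 or more in at least 3 astrocyte or 4 microglia libraries were fitted with limma 3.58.1 in R 4.3.3 (trend, replicate number as a block, as in the study's paired test), and p-values were adjusted by Benjamini-Hochberg over all tested genes. The interaction used all 4 astrocyte groups. Self-tests ran on simulated data. The correlation of same-numbered libraries' deviations from their group means ran from -0.144 to 0.411 in astrocytes, so the numbers are not shown to pair those libraries. In microglia the authors' shift gives each replicate number the same mean for a gene, so that correlation cannot test the pairing. Members and gene lists were chosen with earlier results of these data known. Every member is named. Values per library are given for members called in T/S/Z against DMSO among the 10 largest, for those called in T/S/Z/N against T/S/Z or DMSO, and for members called in microglia, where the text gives 6 genes by library, in the groups their comparisons use, and the others by their change, a narrowing made after the values were seen. Among pathway genes the called gene with the largest change in each direction is named, except where that gene is not reported here. Promoters came from RefSeq (GRCm38.p6). Figures were drawn with matplotlib 3.10.9.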

Additional observations from a re-analysis of the deposited data

Results flagged for a closer look

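In groups of 4 microglia libraries, the levels of 6 genes were tested for a library far from the others, 36 groups in all, and 2 stood apart by Dixon's criterion. Sparc in the T/5z/N library of replicate 4 read 3.356, below the other 3, and P4ha1 in the DMSO library of replicate 3 read 5.334, above the other 3. Chance gives about 1 in 20 such groups.

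Of the 20 members measured in both tables, some differed one way in every astrocyte pair of same-numbered libraries and the other way in every microglia pair, and these differences between the cell types were not tested. The numbers are not shown to pair the astrocyte libraries, the pairing could not be checked in microglia, and the values include members that were not called. With T/S/Z against DMSO there were 6, all lower in astrocytes, as were 7.79% of the 9908 genes tested in both tables. Of these, Col6a1 and Dcn were not at 1 or more in every DMSO microglia library and passed the filter with the help of other groups. The mean log2 changes in astrocytes were -2.085 for Dcn, -1.386 for Lox, -0.4505 for Serpinh1, -0.429 for P4ha1, -0.1557 for Sparc and -0.0843 for Col6a1, while all 4 microglia pairs were higher. The smallest microglia pair difference was 0.0083 for Lox and 0.251 for P4ha1.

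With Nec-1s added to T/S/Z there were 14, all higher in every astrocyte pair and lower in every microglia pair, as were 6.99% of the genes tested in both tables. Among the 14, Dcn and Loxl2 passed the microglia filter with the help of other groups. The collagens changed in astrocytes by 2.39 (Col3a1), 1.927 (Col1a2), 1.154 (Col1a1), 0.9718 (Col4a2), 0.7364 (Col4a1) and 0.1957 (Col5a2). The proteoglycans and glycoproteins changed by 2.259 (Dcn), 1.08 (Nid1), 0.4593 (Bgn) and 0.1303 (Thbs2), and the processing genes by 1.518 (Lox), 0.4436 (Loxl2), 0.3255 (Serpinh1) and 0.281 (P4ha1). In microglia the pairs of Lox lay between -1.46 and -0.601 and those of Col3a1 between -0.333 and -0.106.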

How the results depend on the processing

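Leaving out the replicate block changed no count of members called by more than 1.5 times, with 20 in astrocytes T/S/Z, 15 with Nec-1s added, 4 in T/S/Z/N against DMSO, 14 in the interaction, and 12, 3, 13 and 7 in the microglia comparisons. With an ordinary per-gene variance the astrocyte counts were 3, 0 and 0 in the first 3 of these and 11 in the interaction. A fold minimum of 2 gave 13, 9, 0 and 9 in astrocytes and 2, 1, 1 and 1 in microglia. With 5 added to FPKM before the log the count for T/S/Z/N against DMSO was 2, the microglia counts were 2, 1, 2 and 3, and the median change with T/S/Z in astrocytes was -0.67. A required mean of 3 gave 2, 2 and 3 for T/5z and for Nec-1s added to T/5z and T/S/Z in microglia, and median centring and quantile normalization gave 5 and 6 for T/S/Z in microglia. Leaving out 1 replicate gave 0 for Nec-1s alone, 19 to 20, 11 to 15, 3 to 6 and 7 to 14 in astrocytes, and 8 to 17, 2 to 4, 10 to 16 and 6 to 8 in microglia, and member medians of 0.0027 to 0.095 for Nec-1s, -0.85 to -0.70 for T/S/Z, 0.36 to 0.50 for Nec-1s added and -0.25 to -0.22 for T/S/Z/N against DMSO. The cause of these shifts was not tested, other than that fewer members are tested with a mean of 3.

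Signs turned only for members that were not called, in the 3 astrocyte comparisons in which single members were refitted. Mfap5 read 0.084 under quantile normalization with T/S/Z, and for T/S/Z/N against DMSO Lum read 0.042 under median centring and 0.0081 under quantile normalization, and Ogn 0.020 under centring. Leaving out 1 replicate, the T/S/Z changes ran from -0.194 to 0.012 for Mfap5, -0.164 to 0.022 for Fn1 and -0.058 to 0.141 for Lamc1. With Nec-1s added they ran from -0.050 to 0.162 for Col11a1, -0.124 to 0.048 for Col6a2, -0.144 to 0.129 for Mfap5, -0.054 to 0.097 for Sparc, -0.126 to 0.043 for Lamc1 and -0.178 to 0.111 for Loxl1. For T/S/Z/N against DMSO they ran from -0.083 to 0.066 for Col12a1, -0.126 to 0.065 for Lum, -0.00025 to 0.151 for Lama4 and -0.023 to 0.035 for Lamc1. Members near the filter level of 1, such as Mfap5 and most microglial collagens, are to be read with care, and the effect of depth on them was not tested.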
